A study of Mus musculus with 18 samples.

Results

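RNA sequencing values were compared between non-tumour livers of 3 mice without the microRNA cluster miR-181ab1 (GKO, a global knockout in every tissue) and of 3 wild type (WT) mice, all after diethylnitrosamine (DEN), a carcinogen that liver cells convert to a DNA-damaging form. These 6 samples are part of a series of 18, and 13768 of the 54838 genes in the table were tested, those with a mean of at least 0.5 TPM over the 6 livers. Both groups were C57BL/6 mice of 36 weeks injected once with DEN at 25 mg/kg on postnatal day 12, and the study's methods describe male littermates and tissue taken beside tumours. Normal livers of untreated mice of the same age, strain and genotypes (3 GKO and 3 WT) and tumours of DEN-treated mice (3 and 3) serve below only for comparison. The labels number the samples as replicates and tie no tumour to the liver it came from, and p-values measure only the spread between these samples, which may in part be technical. The sampled livers carried tumours elsewhere, so the groups are not tumour-free livers, and in this knockout every cell type of the liver and of the rest of the body lacks the cluster. The study reports fewer tumours and a smaller tumour volume in GKO than in WT livers after DEN. Tumour burden thus differs with genotype, and its part in the values below cannot be told apart from that of the deletion.

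MicroRNAs are short RNAs that guide silencing proteins to messenger RNAs, mostly by pairing of bases 2 to 8 (the seed) with the 3' untranslated region of the target, and so lower the level of that messenger. The miR-181 family is best known from lymphocyte development and is also made in liver. The hepatocyte, the main cell of the liver, makes fatty acids from glucose (de novo lipogenesis), makes cholesterol, stores lipid in droplets and burns fatty acids in mitochondria.

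The mature sequences are shown because the deleted cluster shares its seed with copies that the knockout leaves in place. Capitals mark the seed, and sequences and positions are those of RefSeq on GRCm38.p6.
miR-181a-5p: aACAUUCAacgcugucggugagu
miR-181b-5p: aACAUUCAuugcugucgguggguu
miR-181c-5p: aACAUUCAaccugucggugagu
miR-181d-5p: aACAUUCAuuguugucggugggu
The deleted copies of miR-181a-5p and miR-181b-5p lie at chr1:137966468-137966490 and chr1:137966650-137966673 on the plus strand. Second copies of the same mature sequences lie at chr2:38852741-38852763 and chr2:38853845-38853868, also on the plus strand. miR-181c-5p and miR-181d-5p lie at chr8:84178924-84178945 and chr8:84178759-84178781 on the minus strand. The libraries cannot check the deletion: over all 18 libraries the 6 miR-181 hairpin genes held 1 read together. It was counted on Mir181a-1, a deleted hairpin, in a GKO tumour.

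Cbx7, a Polycomb protein that the study followed as a target, has matches to this seed followed by an A (8mer) at nucleotides 2014 and 2321 of its 2509-nucleotide 3' untranslated region in GENCODE release 21. They are shown with 10 bases on each side, the match in capitals, at chr15:79916288-79916315 and chr15:79915981-79916008 of mm10 on the minus strand.
first site: cctgcatattTGAATGTAgaggttgggt
second site: tcagacgaccTGAATGTAttgggaggaa

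The 6 libraries held 13808883 to 17907881 reads on genes, and the defining genes of hepatocytes were abundant in all (13 of 13 tested, with a summed level of 83587 to 103593 TPM in WT and 78059 to 98856 TPM in GKO livers). WT non-tumour 2 stood apart. Its log2 levels correlated with those of the other 5 livers at 0.895 to 0.931, whereas the correlations among those 5 lay between 0.945 and 0.977. In that liver Mup3, a major urinary protein, was at 519.5 TPM where the others had 10095 to 22121 TPM, and the periportal enzyme Sds was at 0.723 TPM where the others had 148 to 234 TPM. Ly6d, a marker of liver tumours, was at 994 TPM there and between 6.00 and 25.9 TPM in the others. Cbr3, of the same marker list, was at 143 TPM there and between 1.19 and 5.5 TPM in the others, Krt8, an epithelial keratin, at 1921 TPM against 219 to 366 TPM, and Prom1, a progenitor marker, at 8.21 TPM against 0.0999 to 0.125 TPM. The lists that hold these genes were divided. Msln and Upk3b, listed with Krt8 as mesothelial markers, were at 0 TPM there. Among the tumour markers Tff3 was at 5.96 TPM against 14.8 to 57.8 TPM in the others. Afp, at 2.11 TPM, lay within their range of 0.189 to 2.54 TPM. The progenitor marker Sox9 was at 0.740 TPM there against 1.88 to 7.19 TPM. Whether the piece of WT non-tumour 2 held tumour tissue is not known and was not tested, which bears on each value below that rests on it. In the same liver the genes of G2/M phase stood a median of 1.29, those of NRF2 and glutathione 1.89 and those of cholesterol synthesis 1.97 above the 6-liver mean on the log2 scale. GKO non-tumour 2 differed in its clock and mitochondrial genes, with the evening clock gene Dbp at 2.35 TPM where the others had 23.9 to 122 TPM. Transcripts of the mitochondrial genome took 21.4% of its TPM and 4.52% to 9.94% in the others. The main group results below are therefore given with and without WT non-tumour 2.

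The question was which genes differ between GKO and WT livers exposed to the carcinogen outside the tumours. No single gene reached an adjusted p under 0.05 (limma on log2(TPM + 1), 0% of genes tested, smallest adjusted p of 0.643, and 0 genes also with limma's voom on recovered reads). At an unadjusted p under 0.05, 799 genes (5.8%) differed, 270 higher (1.96%) and 529 lower (3.84%) in GKO livers. In 1817 genes (13.2%) the 3 GKO and 3 WT values did not overlap, with GKO higher in 534 (3.88%) and lower in 1283 (9.32%). For a single gene 3 livers against 3 allow no exact permutation p below 0.1. The median log2 fold change over all genes was -0.15, with 33.5% of genes above 0, and values below are to be read against both. With each library centred on its own median gene the split turned to 500 higher and 301 lower, and with TPM rescaled without mitochondrial genes to 375 and 353. Single livers moved these counts too. The number lower was 889 without WT non-tumour 1, 323 without WT non-tumour 2, 1252 without GKO non-tumour 1, 151 without GKO non-tumour 2 and 202 without GKO non-tumour 3, and the number higher was 485 without WT non-tumour 1.

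Genes of lipid synthesis and storage were lower in GKO than in WT livers, below the median of all genes, and most kept this position without WT non-tumour 2. Of 21 de novo lipogenesis genes tested, 19 had a lower level in GKO livers, 10 at an unadjusted p under 0.05 (all genes, 3.84%) and none higher at it. In 11 the groups did not overlap (all genes, 9.32% with GKO lower and 3.88% with GKO higher). In all, 19 were below the median of all genes (50% by definition). Their median log2 fold change was -0.71, or -0.54 after median centring, where 19 were lower. Without WT non-tumour 2 the median was -0.63, with 20 lower and 7 at the unadjusted threshold. In the livers themselves the median of these genes stood 0.31, 0.63 and 0.26 above the 6-liver mean in WT and 0.18, 0.60 and 0.43 below it in GKO livers, in replicate order. Every WT liver thus lay above every GKO liver. Of 20 lipid droplet genes, 18 were lower, 6 at the unadjusted threshold, with a median of -0.53 (-0.36 after centring, and -0.65 without WT non-tumour 2). That list too put all WT livers above all GKO livers.

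**Figure D1:**
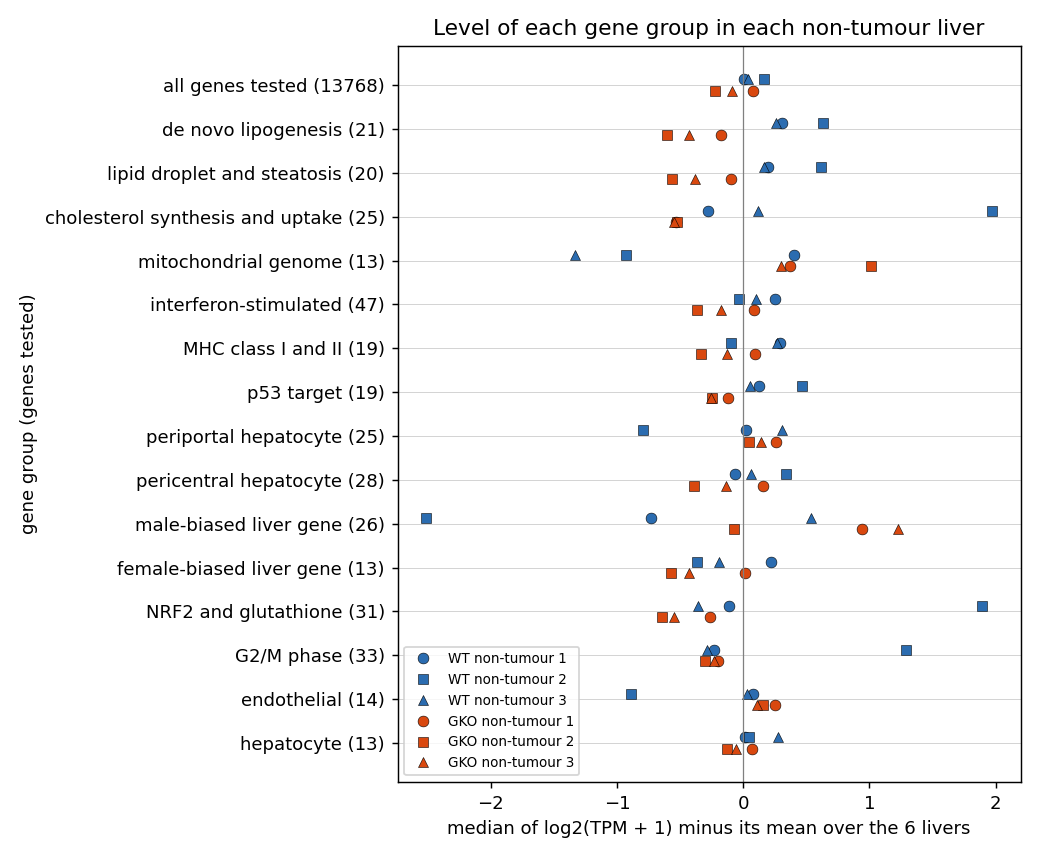
Position of each gene group in each non-tumour liver, as the median over the group's genes of log2(TPM + 1) minus the gene's mean over the 6 livers. Blue marks are WT and orange marks GKO livers, with circles, squares and triangles for replicates 1, 2 and 3. The lipogenesis and lipid droplet genes separate the genotypes, whereas the cholesterol, NRF2, G2/M and male-biased genes have WT non-tumour 2 (blue square) far from the other livers.

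Steps from glucose towards fat showed the lower level with little spread. Pklr, the liver pyruvate kinase that makes pyruvate at the end of glycolysis, had 32.2, 41.1 and 38.3 TPM in WT and 18.2, 8.68 and 12.8 TPM in GKO livers. Its groups did not overlap (log2 fold change -1.48, standard error 0.29, unadjusted p = 0.00135). Mid1ip1, which promotes the assembly of the fatty acid enzyme acetyl-CoA carboxylase, had 29.9, 31.9 and 25.9 TPM against 15.7, 12.1 and 14.4 TPM. The difference was -1.01 (standard error 0.20, unadjusted p = 0.00151) and -0.94 without WT non-tumour 2. Me1, the malic enzyme that supplies NADPH for fat synthesis, had 54.9 ± 4.40 TPM (SD, n = 3) in WT and 32.5 ± 6.20 TPM (SD, n = 3) in GKO livers, again without overlap. The glucose transporter Slc2a2 also was lower without overlap (-0.97), but over 22 genes of glucose metabolism, which include Pklr, the median was -0.11, with 8 higher and 14 lower.

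Further along the pathway the picture was less even. Fads2, a desaturase of polyunsaturated fatty acids, had 122, 292 and 192 TPM in WT livers and 95.8, 49.3 and 49.8 TPM in GKO livers. The highest value was that of WT non-tumour 2, and the log2 fold change of -1.60 was -1.29 without it. Fads1, its neighbour in the pathway, had a log2 fold change of -1.33 with groups that did not overlap. Fasn, the fatty acid synthase, had 22.8, 74.7 and 11.2 TPM against 7.21, 12.3 and 9.88 TPM. Here the groups were not separate, and the difference of -1.40 (unadjusted p = 0.0599) was -0.69 without WT non-tumour 2. Srebf1, a transcription factor of this pathway, was lower with overlap (-0.60, unadjusted p = 0.115), and Mlxipl, the glucose-responsive factor ChREBP, was higher with overlap (0.54, unadjusted p = 0.336) and at -0.04 without WT non-tumour 2. Scd1, the stearoyl-CoA desaturase, had 1664, 675 and 345 TPM against 726, 848 and 287 TPM, and its interval for the log2 fold change ran from -1.91 to 1.16.

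The enzyme Aacs, which activates acetoacetate for lipid synthesis and was in no list, was among the genes of smallest p (chromosome 5, 125475814 to 125517410, plus strand). It had 9.41, 12.6 and 8.93 TPM in WT and 2.75, 2.32 and 4.31 TPM in GKO livers, a mean 3.30-fold higher in WT. The groups were well apart, with a difference of -1.47 (standard error 0.25, unadjusted p = 0.000555 from limma).

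Genes that coat and enlarge lipid droplets followed the same direction. Cidec, which fuses droplets into larger ones and lies on the minus strand of chromosome 6 (113424634 to 113435760), had 51.3, 63.9 and 22.6 TPM in WT and 7.84, 10.9 and 12.0 TPM in GKO livers. The lowest WT liver lay above the highest GKO liver, with a log2 fold change of -1.96 (standard error 0.40, unadjusted p = 0.00176 from limma). Cd36, a fatty acid receptor of the cell surface, had 71.0, 149 and 49.2 TPM against 28.7, 23.04 and 23.3 TPM. The GKO values were close to each other and below all WT values (-1.66, and -1.22 without WT non-tumour 2). Gpat3, an enzyme of triglyceride synthesis, had 7.99, 19.1 and 10.8 TPM against 3.28, 3.68 and 5.88 TPM, again without overlap (-1.32). Plin2, the main droplet coat of hepatocytes, had 354, 897 and 299 TPM in WT livers and 207, 212 and 208 TPM in GKO livers. Its log2 fold change was -1.12, and -0.64 without WT non-tumour 2. Pparg, a nuclear receptor that drives lipid storage, was lower with overlapping groups (-1.13, unadjusted p = 0.0202). Cidec also marks fat cells. Of the other 7 fat cell markers Adipoq, Lep and Plin1 were at or under 0.0898 TPM and Retn and Slc36a2 at or under 0.308 TPM in all 6 livers. Cfd had 21.8, 0.266 and 8.16 TPM in WT and 2.08, 8.31 and 7.80 TPM in GKO livers, and Fabp4 had 7.05, 24.7 and 3.25 TPM against 6.49, 6.17 and 3.87 TPM, both with overlap. The part of fat cells in the droplet genes was not tested. In bulk tissue fewer cells of a type and less RNA per cell cannot be told apart, here and for every gene below.

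**Figure D2:**
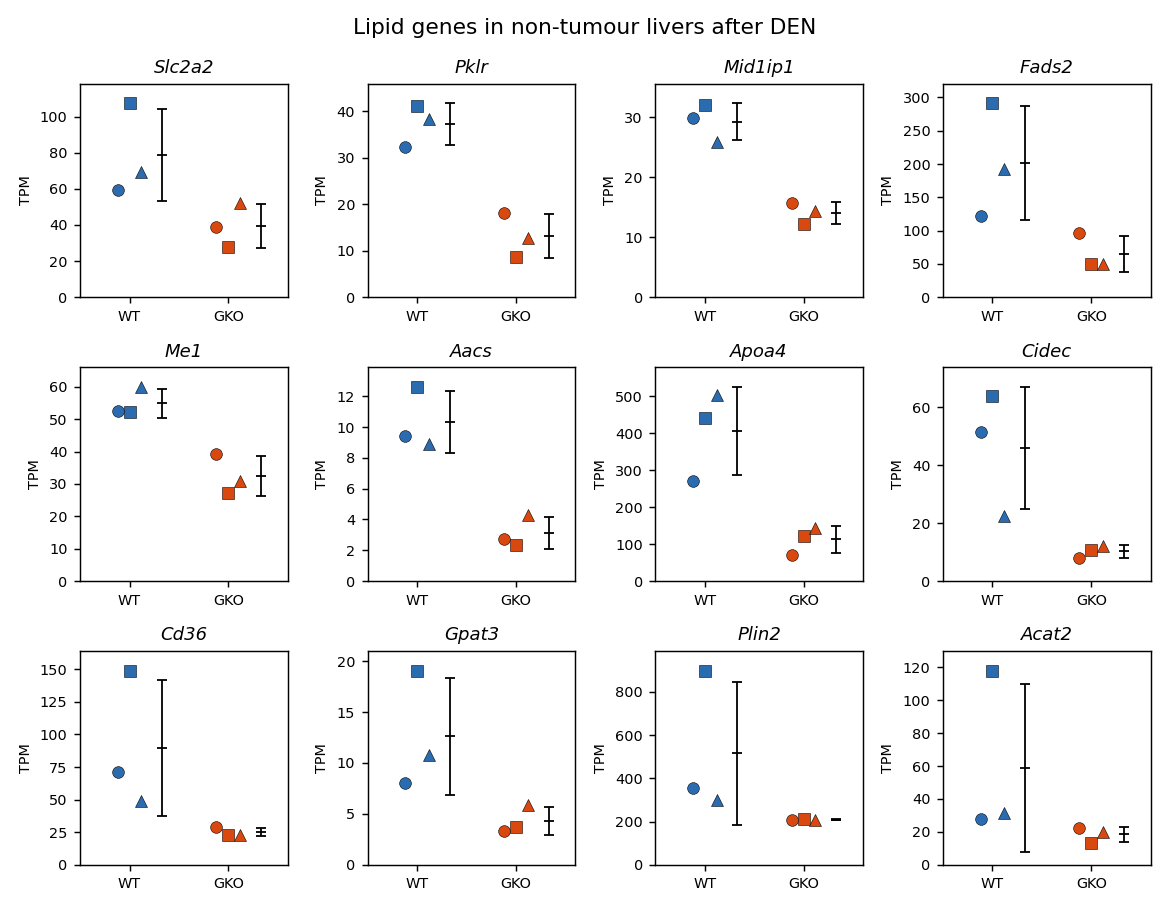
TPM of 12 genes of glucose and lipid metabolism in each non-tumour liver, circles, squares and triangles for replicates 1, 2 and 3, with the mean and SD of 3 livers as a bar beside them (stopped at 0). Pklr, Mid1ip1, Aacs and Cidec have no overlap between WT (blue) and GKO (orange), and in Acat2 the highest value is WT non-tumour 2 at 118 TPM.

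Cholesterol genes were lower in all 25 of 25 tested, with a median of -1.04, but the size rested largely on WT non-tumour 2. Of these, 3 were at the unadjusted threshold (all genes, 3.84% lower) and in 11 the groups did not overlap (all genes, 9.32% with GKO lower). The median per liver was -0.28, 1.97 and 0.12 in WT livers and -0.53, -0.53 and -0.55 in GKO livers, so the GKO livers were alike and lowest. Leaving WT non-tumour 2 out gave a median of -0.45, with 23 of 24 lower and 7 at the unadjusted threshold. Leaving WT non-tumour 1 out gave -1.52, with 19 at it, and 1 was at it without GKO non-tumour 1 or GKO non-tumour 3. Acat2, a thiolase at the entry of the pathway, had 27.8, 118 and 31.3 TPM against 22.3, 13.4 and 19.7 TPM. The groups did not overlap, and its log2 fold change of -1.33 (unadjusted p = 0.0462 from limma) was -0.68 without WT non-tumour 2. Apoa4, an apolipoprotein that the liver secretes with lipid, had 272, 442 and 502 TPM against 71.3, 122 and 143 TPM, without overlap (-1.85, standard error 0.36), while 17 apolipoprotein genes together had a median of -0.11. Genes of fatty acid oxidation and PPAR alpha, the receptor that switches them on, had a median of -0.32 over 29 genes (-0.15 after centring), with 1 at the unadjusted threshold in each direction.

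The rule for naming single genes took the 10 of smallest p in each direction among genes whose groups did not overlap, all with an adjusted p of 0.643. Those described here that were lower in GKO livers were Crym, Gm28347, Aldh1b1, Aacs, Apoa4, Pklr, Mid1ip1, Gm26490 and Cidec. Crym, a thyroid hormone-binding protein (mu-crystallin; chromosome 7, 120186380 to 120202111, minus strand), had the smallest p among them. It had 4.99, 11.9 and 6.55 TPM in WT and 1.51, 0.715 and 0.951 TPM in GKO livers, a mean 7.38-fold higher in WT. The log2 fold change was -2.04 (standard error 0.32, unadjusted p = 0.000361 from limma), and -1.73 without WT non-tumour 2. Aldh1b1, a mitochondrial aldehyde dehydrogenase, had 51.2, 47.2 and 36.4 TPM against 19.2, 12.9 and 16.3 TPM, a gap wider than the spread within either group. Its log2 fold change was -1.42 (standard error 0.24). Gm28347 and Gm26490 rested on few reads, with 5 to 7 and 1 to 4 in the WT libraries and 1 each and 0 in the GKO libraries.

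Hnf4a, a nuclear receptor that keeps hepatocyte genes on, had 133, 183 and 176 TPM against 165, 134 and 141 TPM, with overlap. Over 17 hepatocyte transcription factors the median was -0.16, close to that of all genes. Alb (albumin) had 39487 ± 1591 TPM (SD, n = 3) in WT and 28032 ± 5812 TPM (SD, n = 3) in GKO livers, a log2 fold change of -0.51 with an unadjusted p of 0.0527 from limma.

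Of the 10 genes that were higher, Klf9 was the most abundant that codes for protein. Klf9 is a transcription factor induced by glucocorticoids and thyroid hormone (chromosome 19, 23141226 to 23168134, plus strand). It had 51.0, 34.8 and 45.1 TPM in WT and 76.6, 105 and 105 TPM in GKO livers, a mean 2.19-fold higher in GKO livers. The groups were apart, with a log2 fold change of 1.12 (standard error 0.25, unadjusted p = 0.00270 from limma), and 0.96 without WT non-tumour 2. Meig1, known for its part in sperm formation, had 0.994, 0.222 and 0.976 TPM against 6.26, 2.43 and 4.39 TPM, also without overlap. Hist1h4d, a replication histone, differed by 1.01 at 0.323 to 2.92 TPM. The other 7 were non-coding genes or pseudogenes. Mir6236 had 44.5, 49.8 and 35.0 TPM against 102, 204 and 125 TPM, and Mir5620 had 6.52, 2.19 and 4.27 TPM against 13.7, 20.5 and 15.5 TPM, from only 1 to 3 reads in WT and 6 to 9 in GKO libraries. Both count long-RNA library reads over a hairpin and not a mature microRNA. Gm7618 (0 to 2 reads in WT and 6 to 10 in GKO libraries), Gm22655 (0 to 1 and 3 to 6) and Snora17 (0 to 1 and 3 to 4) rested on few reads, and Gm14703 (0.94) and Rpl35a-ps2 (1.00) on 6 to 38 reads.

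All 13 protein-coding genes of the mitochondrial genome had a higher mean in GKO livers. Their median log2 fold change was 1.20, and 6 were at the unadjusted threshold (all genes, 1.96% higher). In 3 the groups did not overlap (all genes, 3.88% with GKO higher). They are transcribed together from 1 small circular chromosome and are not independent. Their summed level was 94078, 49041 and 42467 TPM in WT and 93425, 201513 and 94242 TPM in GKO livers. WT non-tumour 1 was thus level with 2 of the GKO livers, and GKO non-tumour 2 was far above the rest. mt-Nd6, the complex I subunit encoded on the other strand, had 4383, 2999 and 2252 TPM against 5089, 8455 and 4893 TPM, without overlap (0.94, standard error 0.34, unadjusted p = 0.0282 from limma). mt-Co1, a subunit of complex IV, had 27278, 12162 and 8775 TPM against 26806, 50311 and 19912 TPM, with overlap. The median over the 13 genes was 1.03 without WT non-tumour 2 and 0.85 without GKO non-tumour 2 or 0.84 without WT non-tumour 3, with 0 at the unadjusted threshold in each of these fits. After quantile normalization it was 1.14, with 2 at the threshold. It was 1.67 without WT non-tumour 1, with 12 at it, and 3 were at it without GKO non-tumour 3. The 76 nuclear genes of oxidative phosphorylation, whose proteins join those of the mitochondrial genome in the same complexes, had a median of -0.02, with 35 higher and 41 lower. Because TPM sums to a fixed total, a larger mitochondrial share lowers the TPM of all other genes in that library. The part of this share in the lower values above was measured by rescaling TPM without mitochondrial genes, which left the lipogenesis median at -0.59 with 9 genes at the unadjusted threshold and the lipid droplet median at -0.42 with 6.

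Genes with a higher level in male than in female liver, which follow the pulses of growth hormone through STAT5, were higher in 25 of 26 cases in GKO livers, with a median of 1.68. This size rested in part on WT non-tumour 2. The per-liver median was -0.73, -2.52 and 0.54 in WT and 0.94, -0.08 and 1.22 in GKO livers, so the groups overlapped. Without WT non-tumour 2 the group's median was 0.70, with 23 of 26 higher. At the unadjusted threshold 5 were higher with all livers (all genes, 1.96%) or without WT non-tumour 2. The number was 14 without WT non-tumour 3, 9 without GKO non-tumour 2 and 2 without GKO non-tumour 3. Mup11, a major urinary protein, had 52.1, 1.17 and 161 TPM in WT and 854, 463 and 2101 TPM in GKO livers. The groups did not overlap, and the log2 fold change of 5.15 was 3.34 without WT non-tumour 2. Mup genes are near-identical copies, and the authors' counting could split or drop their shared reads, so single Mup values are uncertain.

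Among 13 female-biased genes the members went both ways. Cyp2c69 had 0.550, 0.208 and 0.608 TPM in WT and 60.5, 1.95 and 21.3 TPM in GKO livers, and its close relative Cyp2c40 had 1.85, 0.601 and 2.29 TPM against 49.8, 1.63 and 30.8 TPM. In both, GKO non-tumour 2 was far below the other GKO livers. Cux2, a transcription factor of female liver, had 0.133, 0.0121 and 0.296 TPM against 2.55, 0.316 and 7.10 TPM. Slc22a27, of the organic anion transporter family, went the other way, with 5.94, 3.13 and 3.50 TPM in WT and 1.66, 0.771 and 0.922 TPM in GKO livers. No value overlapped (-1.28, standard error 0.27, unadjusted p = 0.00222 from limma), and Slc22a26 was lower as well (-0.71). The 13 genes had a median of -0.45. At the unadjusted threshold 4 were higher (all genes, 1.96%) and 2 lower (all genes, 3.84%), or 1 and 4 without WT non-tumour 2. The number higher was also 1 without WT non-tumour 1, WT non-tumour 3, GKO non-tumour 1 or GKO non-tumour 3, and the median was 0.04 without WT non-tumour 1.

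In the growth hormone axis, 4 of 17 genes were higher at the unadjusted threshold (all genes, 1.96%) and none lower (all genes, 3.84%), with a median of -0.04. The 4 became 2 without WT non-tumour 1, WT non-tumour 2 or GKO non-tumour 1 and 1 without GKO non-tumour 3. Socs2, a feedback inhibitor that STAT5 induces, had 2.75, 1.45 and 2.61 TPM in WT and 11.4, 3.44 and 10.8 TPM in GKO livers. Each GKO liver was above each WT liver, though GKO non-tumour 2 was close to them (1.43, standard error 0.42, unadjusted p = 0.0119 from limma). Igf1, the growth factor that liver secretes under growth hormone, had 107, 63.2 and 115 TPM against 146, 176 and 188 TPM. The groups did not overlap (0.87), and without WT non-tumour 2 the difference was 0.60. Igfbp2, a binding protein of the same factor, was higher with overlap (0.88, unadjusted p = 0.0280). Cyp2c37, a cytochrome of the pericentral liver and no member of this axis, had 221, 91.2 and 268 TPM against 665, 534 and 649 TPM, without overlap (1.80, standard error 0.41). Reads of the similar Cyp2c genes may have been divided among them in counting, so each such value is uncertain.

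**Figure D3:**
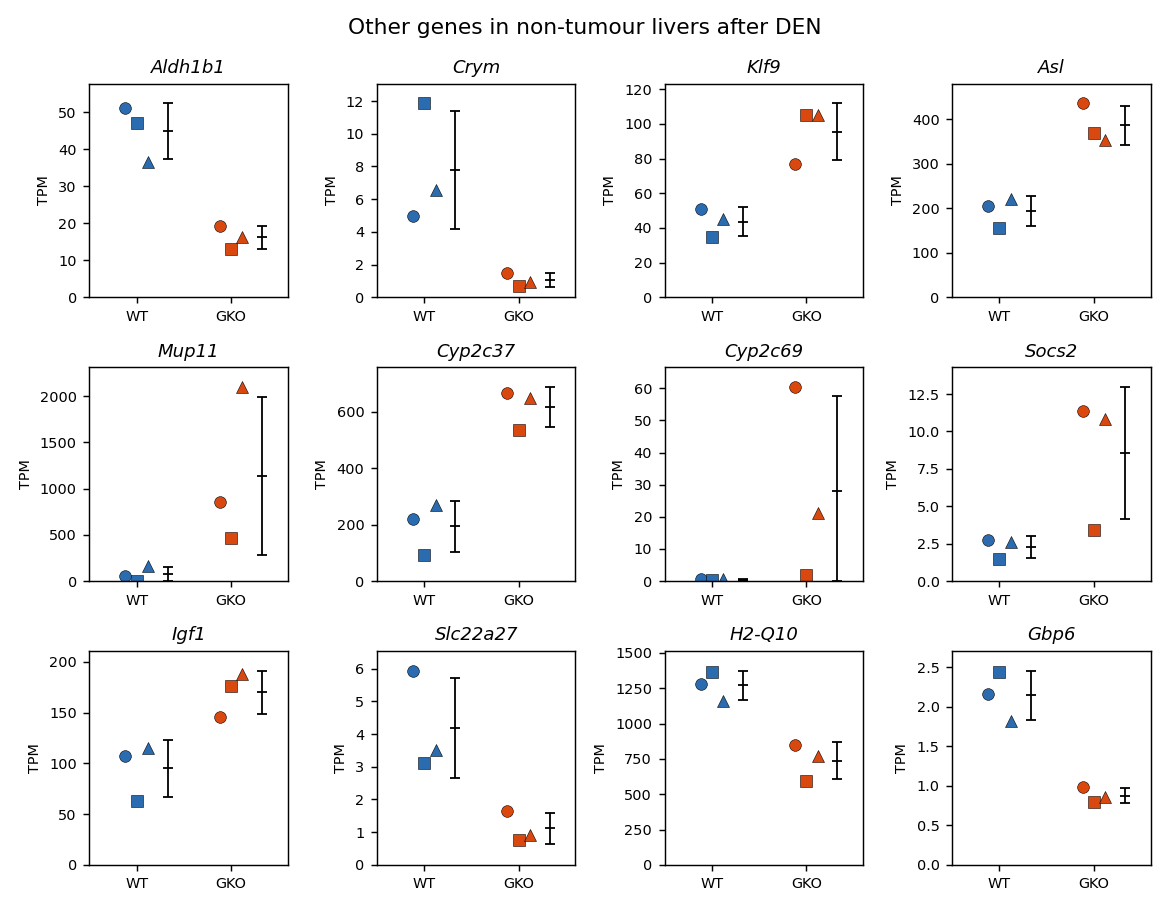
TPM of 12 genes outside lipid metabolism in each non-tumour liver (WT blue, GKO orange, circles, squares and triangles for replicates 1, 2 and 3, bars for the mean and SD of 3 livers, stopped at 0). Aldh1b1 has no overlap between the groups, and in Cyp2c69 and Socs2 the GKO livers themselves differ, with replicate 2 lowest.

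Among interferon-induced and antigen presentation genes, single members were lower in GKO livers without overlap. Of 47 interferon-stimulated genes, 11 were higher and 36 lower (all genes, 33.5% above 0), with a median of -0.28 (-0.11 after centring). At the unadjusted threshold 7 were lower (all genes, 3.84%) and none higher, and 3 were lower at it after centring, with voom or with TPM rescaled without mitochondrial genes. Without WT non-tumour 2 the median was -0.31, with 42 lower and 4 at the threshold, and 3 were at it without GKO non-tumour 2 or GKO non-tumour 3. Gbp6, a guanylate-binding protein of host defence, had 2.17, 2.45 and 1.83 TPM in WT and 0.987, 0.793 and 0.854 TPM in GKO livers, without overlap (-0.74, standard error 0.17, unadjusted p = 0.00383 from limma). Gbp2 (-0.95), Tgtp1 (-0.86) and Isg15 (-0.70) also had groups apart. Of 19 genes of MHC class I and II, 15 were lower, 1 of them at the unadjusted threshold, with a median of -0.35 (-0.18 after centring). H2-Q10, a secreted class I molecule made by hepatocytes, had 1283, 1367 and 1160 TPM against 848, 594 and 774 TPM. All GKO livers were below all WT livers (-0.79, and -0.74 without WT non-tumour 2).

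Targets of p53, the protein that answers DNA damage, were lower in 17 of 19 cases (all genes, 33.5% above 0) with a median of -0.41 (-0.24 after centring, and -0.31 with WT non-tumour 2 left out). Leaving out single livers gave medians of -0.58 to -0.31. The 4 at the unadjusted threshold (all genes, 3.84% lower) were Gadd45a, Aen, Fas and Ccng1, each without overlap. After median centring 2 members were at it, and 1 was at it without GKO non-tumour 2 or GKO non-tumour 3. Gadd45a, a growth arrest gene, had 19.3, 28.5 and 12.3 TPM in WT and 9.70, 4.99 and 9.91 TPM in GKO livers (-1.17, standard error 0.37). Fas, a death receptor, had 17.9 ± 3.07 TPM (SD, n = 3) and 11.5 ± 0.364 TPM (SD, n = 3). Every WT liver was above every GKO liver in the per-liver median of this list, by as little as 0.06 against -0.12.

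Other lists moved with WT non-tumour 2. The NRF2 and glutathione genes were lower in 29 of 31 cases with a median of -0.93, which was -0.21 without that liver. Nfe2l2 (NRF2 itself, which turns on antioxidant genes) had 33.2, 44.9 and 26.2 TPM against 20.1, 21.3 and 19.3 TPM, without overlap (-0.72, and -0.52 without WT non-tumour 2). G2/M phase genes had a median of -0.56 over 33 of the 52 listed that were tested, with 0 at the unadjusted threshold, and -0.05 without that liver. Periportal genes had a median of 0.29 over 25, with 4 higher at the threshold (all genes, 1.96%). Without that liver the median was 0.03, with 3 at the threshold. The 28 pericentral genes had a median of -0.29, or -0.11 without it. Asl, the urea cycle enzyme argininosuccinate lyase and a periportal gene, had 206, 156 and 221 TPM in WT and 437, 368 and 354 TPM in GKO livers. Its groups were apart (1.00, and 0.85 without WT non-tumour 2), whereas the 10 urea cycle genes had a median of -0.20.

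**Figure D4:**
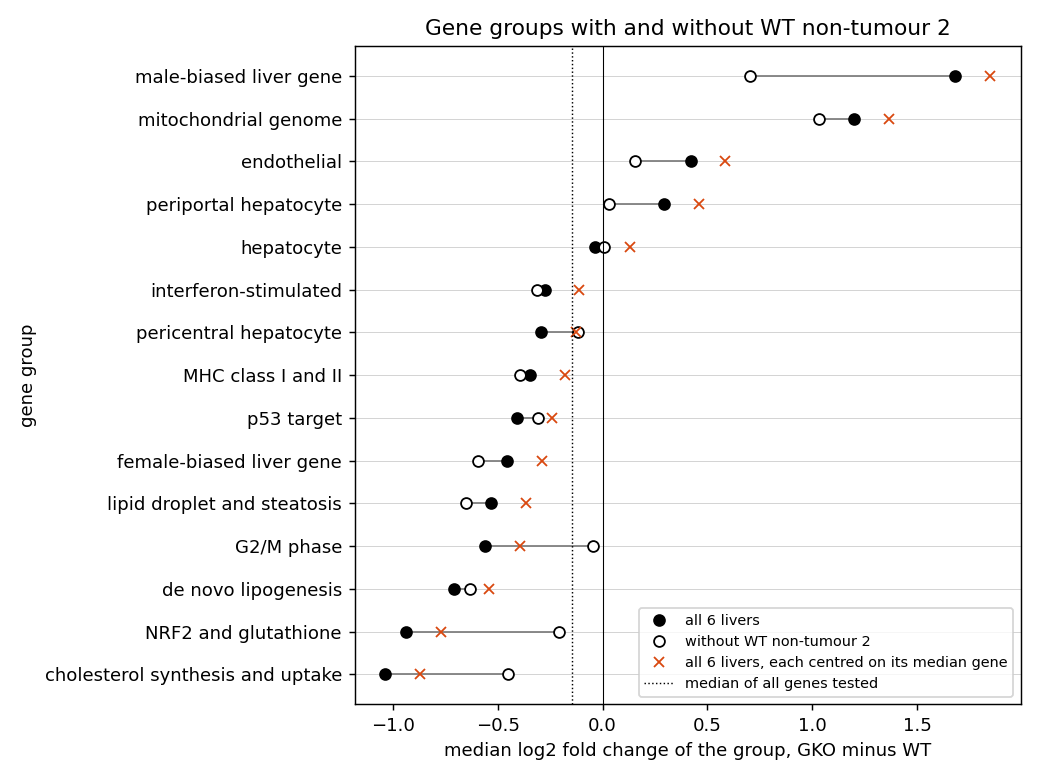
Median log2 fold change (GKO minus WT) of 15 gene groups with all 6 livers (filled circles), without WT non-tumour 2 (open circles) and with each library centred on its median gene (crosses). The dotted line marks the median of all genes, -0.15. The lipogenesis, lipid droplet and mitochondrial medians move little, and those of the NRF2, G2/M, cholesterol and male-biased genes move towards 0.

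Among the marker lists of other cell types, none had more than 1 member at the unadjusted threshold in a direction. Kupffer cell and macrophage markers (16 tested) had a median of 0.07 and a summed level of 607, 322 and 926 TPM in WT and 1439, 292 and 563 TPM in GKO livers, with wide overlap. Endothelial markers were higher in 11 of 14 cases with a median of 0.42, which was 0.16 without WT non-tumour 2. Stab2, a scavenger receptor of sinusoidal endothelium, was at the unadjusted threshold among them (0.56, unadjusted p = 0.0415 from limma). Stellate cell and fibroblast markers were divided, with 10 higher and 8 lower. Markers of liver tumours were 4 higher and 8 lower, with none at the threshold, and their summed level was 91.3, 1370 and 419 TPM in WT and 180.7, 67.8 and 181.5 TPM in GKO livers. The 2 largest sums rested mostly on single genes, Ly6d in WT non-tumour 2 (994 TPM) and Lcn2 in WT non-tumour 3 (281 TPM).

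None of the candidates that the study followed as miR-181 targets was higher in GKO livers at the unadjusted threshold, and 1 was lower. The study took known miR-181 targets with RNA lower in WT tumours than in non-tumour tissue and higher in GKO than in WT tumours. It then kept those with lower levels in the human liver cancer class of highest miR-181. It measured CBX7 protein in tumours and in tumour cells after induced deletion of the cluster, and raised or deleted CBX7 in mice. For these candidates the values here are only RNA of non-tumour liver. In tumours the mean of each was higher in GKO than in WT mice, for Cbx7 at 2.50 against 1.02 TPM and for Aldh3a2 at 78.7 against 29.3 TPM. Cbx7 had 5.20, 0.906 and 3.22 TPM in WT and 5.04, 4.09 and 3.67 TPM in GKO livers. WT non-tumour 1 lay above the GKO range and the other WT livers below it, WT non-tumour 2 by far. The log2 fold change was 0.51 (interval -0.481 to 1.499, unadjusted p = 0.263 from limma) and 0.03 without WT non-tumour 2. Aldh3a2, a fatty aldehyde dehydrogenase with 2 seed matches, had 200, 326 and 231 TPM against 173, 114 and 160 TPM, the direction opposite to a released target. Its groups did not overlap (-0.75, standard error 0.28, unadjusted p = 0.0331). Tef, a clock-controlled factor with no seed match, had 23.2, 9.96 and 41.1 TPM against 28.8, 11.2 and 42.2 TPM, and Ndrg2, with 1 match, had 659, 931 and 780 TPM against 843, 524 and 849 TPM. Both overlapped, and the direction of Ndrg2 (-0.12) turned with the scaling (0.05 after median centring). Gstp2, a glutathione transferase of liver tumours, had 27.0, 168 and 53.2 TPM against 76.1, 32.7 and 102 TPM, with overlap.

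Over all genes with a 3' untranslated region, the 2087 with a match to the seed (TGAATGT on the transcript) had a median log2 fold change of -0.14 and the 9287 without a match -0.19. The median was -0.11 for 674 genes with an 8mer and -0.09 for 430 genes with 2 or more matches. The share that was higher at an unadjusted p under 0.05 was 0.958% with a match and 0.937% without. Genes with matches have longer untranslated regions, a median of 2444 nucleotides against 1028, and the part of this in the medians was not tested. Of the study's list of 592 CBX7 targets, 211 were tested, with a median of -0.08. At the unadjusted threshold 5 were higher and 8 lower, close to the shares of all genes (1.96% and 3.84%). The 26 Polycomb genes had a median of -0.10. Around the deleted cluster, 104 genes within 10 Mb were tested on chromosome 1, with a median of -0.11. Of these, 3 were higher and 4 lower at the threshold, also close to the shares of all genes. The nearest, Ptprc (96.4 kb away), had a log2 fold change of 0.08.

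The same genotype contrast was taken in untreated normal livers. Of 13099 genes tested there, 0 were called (0%). An unadjusted p under 0.05 was found for 519 (3.96%), with 415 higher (3.17%) against 104 lower (0.794%). Across the 12633 genes tested in both, the log2 fold changes correlated at a Pearson's r of 0.020 and a Spearman's rho of 0.075, and 47.3% had the same sign. The contrasts share no samples, and genes are not independent points. Of the 492 genes lower at an unadjusted p under 0.05 after DEN and tested in normal livers, 59.3% were higher in GKO normal livers, as were 62.4% of all genes. Of those 492, 6 were lower and 15 higher at the threshold in normal livers. Of 249 genes higher after DEN, 59.4% were higher in GKO normal livers, 16 of them at the threshold, against 3 lower at it. Gpat3, Igfbp2 and Snora17, named above, were at the threshold in both contrasts in the same direction. In normal livers they were at -0.78 (unadjusted p = 0.0158 from limma), 0.89 (unadjusted p = 0.0267) and 1.78 (unadjusted p = 0.00611). Other named genes, such as Klf9 and Meig1, shared the direction without reaching the threshold in normal livers, and others, such as Aacs and Mid1ip1, had the opposite direction. Of 21 lipogenesis genes 18 were higher in GKO normal livers, with a median of 0.24, and of 24 cholesterol genes 23, with a median of 0.49 and 5 at the unadjusted threshold. The lipid droplet genes divided evenly there, 11 of 20 higher with a median of 0.01. All 13 mitochondrial genes were lower, with a median of -0.28.

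**Figure D5:**
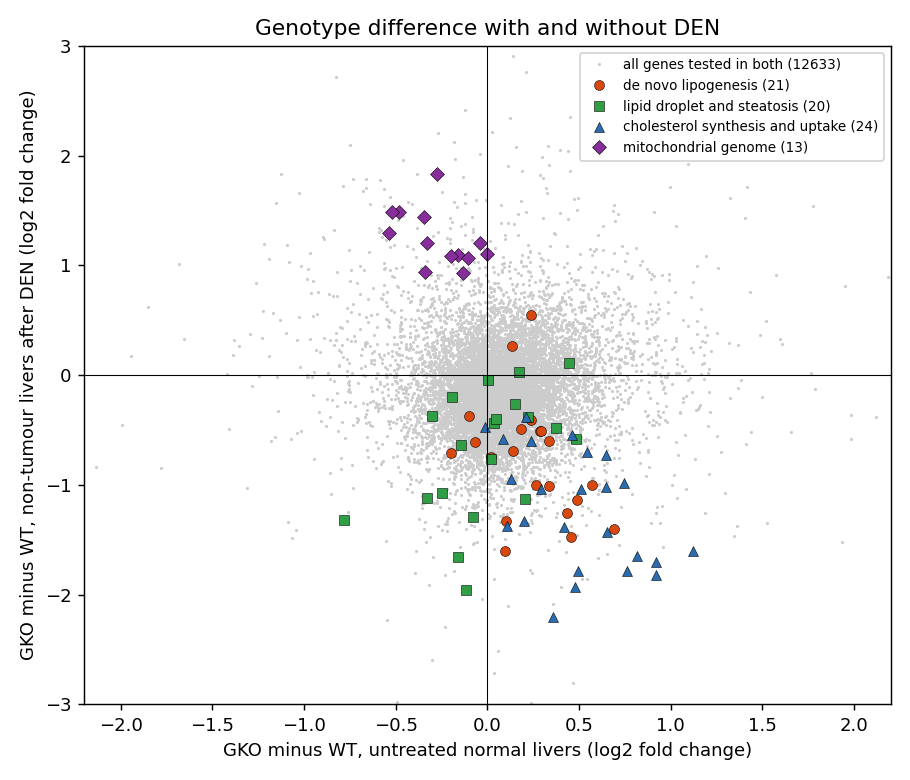
Log2 fold change between GKO and WT in untreated normal livers (x axis) and in non-tumour livers after DEN (y axis), 1 point per gene for 12633 genes, of which 15 unmarked ones lie outside the axes. Most cholesterol (triangles) and lipogenesis genes (circles) lie at the lower right, higher in GKO normal livers and lower in GKO non-tumour livers, and the mitochondrial genes (diamonds) lie at the upper left.

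The difference between the 2 genotype effects was tested in 1 fit over the 12 livers. Of 13488 genes, 0 were called (0%, smallest adjusted p of 0.724 from limma), and 830 (6.15%) passed at an unadjusted p under 0.05, 139 with the effect after DEN higher (1.03%) and 691 lower (5.12%). Of the lipogenesis genes 13 of 21 were among those lower, and of the cholesterol genes 15 of 25. Both counts include WT non-tumour 2, on which the size of the cholesterol difference after DEN largely rested, and are not given without it. The 5 genes of smallest p were Aacs, Mid1ip1, Fam129b, Pklr and Gas6. Aacs had 1.87, 2.60 and 1.04 TPM in WT and 12.5, 2.96 and 5.46 TPM in GKO normal livers, all GKO livers higher, so that the genotypes stood in the opposite order to that after DEN. The difference of effects was -2.82 (standard error 0.55, unadjusted p = 0.000274 from limma). Pklr, with 8.56, 12.7 and 5.83 TPM in WT and 9.68, 13.1 and 14.3 TPM in GKO normal livers, differed by -1.93 between the contrasts. The GKO livers after DEN (8.68 to 18.2 TPM) thus overlapped with the normal livers, and the WT livers after DEN (32.2 to 41.1 TPM) were above them. Crym was likewise at 0.424 to 1.99 TPM in normal livers of both genotypes and at 12.0 to 24.7 TPM in WT tumours against 1.87 to 3.19 TPM in GKO tumours. Fam129b (-1.09) and Gas6, a ligand of TAM receptors (-1.46), were lower in GKO livers after DEN and higher in GKO normal livers.

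Against the tumours the difference was taken as the genotype effect in tumours minus that in non-tumour livers, over 14106 genes in 12 libraries. It was called for 2 genes (0.0142%), Csn3 and Gm36325, and 1483 genes (10.5%) had an unadjusted p under 0.05, the effect in tumours being higher in 1121 (7.95%) and lower in 362 (2.57%). For both called genes the genotypes differed in tumours, and levels were near 0 in all non-tumour livers, where no genotype difference could show. For Aacs the difference was 2.08 (standard error 0.52, unadjusted p = 0.00213 from limma), with 11.8 to 13.1 TPM in WT and 9.01 to 29.5 TPM in GKO tumours, so the lower level of GKO non-tumour livers was not seen there. For Pklr it was 2.60, with 27.0 to 56.8 TPM in WT and 23.7 to 178 TPM in GKO tumours. For Crym it was -0.36 (unadjusted p = 0.451), and GKO values were below WT values in both tissues. In tumours alone the values of Aacs and of Pklr overlapped between genotypes. Aacs, Pklr and Crym were picked for their low level in the same GKO non-tumour livers that enter the difference. Their differences and p-values are therefore not independent of that choice.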

How the data were processed

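Total RNA was sequenced on an Illumina instrument. Per the submitters' processing notes, STAR 2.7.3a and featureCounts 2.0.0 were used with mm10. The authors deposited TPM, reads per gene length scaled to a fixed sum per library. Strand setting, treatment of shared reads and annotation were not given in the sources used here. Of 54838 genes, 54809 matched GENCODE release 21 by identifier, and 101 symbols occurred more than once. No column lacked a sample and 0 library pairs were identical. TPM times exonic length gave whole reads within 0.02 for 97.953% to 98.674% of low values. Depth ranged from 11925055 to 20751348 reads per library and limits genes near 3 reads (counting error only, no molecular identifiers).

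The test was limma's (version 3.58.1, R 4.3.3, moderated with a mean trend, 2-sided) on log2(TPM + 1), a scale that shrinks changes of genes with few TPM. Genes entered a fit where their mean in its libraries reached 0.5 TPM. Called genes had a Benjamini-Hochberg adjusted p under 0.05. All unadjusted p-values are limma's, and intervals are at 95%. The fits were GKO against WT non-tumour livers, the same in normal livers, and the 2 differences of genotype effects (against normal livers and against tumours), each over 12 libraries with 4 group means. The procedure was run on simulated data with genes drawn independently and no outlying liver or library-wide shift. That setting is unlike these livers, so the run checked the code only. Seed matches were read from the longest 3' untranslated region per gene.

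Genes were named by smallest p: up to 10 per direction with a mean of at least 1 TPM and no overlap between groups, up to 4 per list, 5 per difference, and the study's candidates. Others in the text (such as Fasn, Fads1, Srebf1, Mlxipl, Acat2, Plin2, Pparg, Cbr3, Krt8, Prom1, Nfe2l2, Hnf4a, Alb and mt-Co1, and Aacs, Pklr and Crym in tumours) were named after their values were seen. Some genes that the rule names are not reported here. Members and lists were chosen with earlier results of these data known. Lists are described by counts and medians, with no set test.

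Alternatives were a pseudocount of 0.1, no filter or one at 5 TPM, quantile normalization or centring of each library on its median, 1 fit of all 18 libraries, moderation with no trend, the replicate number as a block, and each library left out. Chosen after seeing the data were limma's voom on recovered reads and a rescaling of TPM without mitochondrial genes. Tables and figures were made in Python 3.11.15 (pandas 2.3.3, numpy 2.4.6, matplotlib 3.10.9).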

Additional observations from a re-analysis of the deposited data

Results flagged for a closer look

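The genotype effect differed between tumours and non-tumour livers for 2 of 14106 genes (0.0142%) in limma's test of the difference itself, with an adjusted p of 0.00349 for both. For Csn3 (kappa-casein, a milk protein) the effect in tumours was lower than that in non-tumour livers by a log2 difference of -6.24 (standard error 0.59). In tumours, WT mice had 164, 134 and 92.3 TPM and GKO mice 0.0782, 2.89 and 0.0880 TPM, while the 6 non-tumour livers were all near 0. For Gm36325, a long non-coding RNA, the difference was -3.13 (standard error 0.31), and its level was 8.18, 9.24 and 13.7 TPM in tumours of WT mice but 0, 0.424 and 0.465 TPM in those of GKO mice. Both genes were near 0 in all non-tumour livers and entered the fit only through the tumours. A genotype difference could not show outside the tumours, so the difference of effects restates the contrast in tumours.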

How the results depend on the processing

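The absence of called genes in non-tumour livers held in all alternatives except the fit of all 18 libraries, which called 1 gene (Mir221, 1 read in each GKO non-tumour library and 0 elsewhere), and leaving out single libraries gave 0 in each case. Of genes at an unadjusted p under 0.05, the number higher (270) was 449 without a filter, 99 at 5 TPM, 500 after centring, 442 after quantile normalization, 421 with voom and 182 to 485 without single libraries. The number lower (529) was 307 at 5 TPM, 301 after centring, 1131 over all 18 libraries, 248 with the replicate block and 151 to 1252 without single libraries. With the replicate block 0 genes were called, and 267 were higher. The deviations of same-numbered GKO and WT libraries from their group means correlated at r of -0.29, -0.08 and 0.18, and those of the other pairs at -0.19 to 0.28. With 3 libraries per group these values cannot decide whether same-numbered samples belong together. For the difference from normal livers the count of 0 was 2 without a filter (Eif3s6-ps2 and Mir221) and 0 to 2 without single libraries (Gm24009 and Mir5128 without GKO normal 3). For the difference from tumours the count of 2 was 0 with a pseudocount of 0.1 and with voom, 4 without a filter, 1 at 5 TPM, 13 over all 18 libraries and 2 to 91 without single libraries (91 without WT tumour 3, 17 without GKO tumour 2 and 4 without WT non-tumour 1).

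Signs turned only in genes far from the threshold. Scd1 was at 0.22 without WT non-tumour 1 and 0.11 without GKO non-tumour 3, in a range of -0.91 to 0.22 without single libraries. Ndrg2 was at 0.049 after centring, 0.012 after quantile normalization, 0.0093 without WT non-tumour 2, 0.11 without GKO non-tumour 2 (range -0.24 to 0.11), 0.025 with voom and 0.00097 without mitochondrial genes. Tef was at -0.35 without WT non-tumour 2 and -0.23 without GKO non-tumour 3 (range -0.35 to 0.68). Afp was at 0.061 after centring and 0.11, 0.05 and 0.38 without WT non-tumour 1, WT non-tumour 2 and GKO non-tumour 2 (range -0.48 to 0.38). Gstp2 was at -0.57, -0.10, -0.11 and -0.32 without WT non-tumour 1, WT non-tumour 3, GKO non-tumour 1 and GKO non-tumour 3 (range -0.57 to 0.72). The causes were not tested. Of 239 medians of 15 lists under alternatives, 232 moved by less than the spread between livers of a group. WT non-tumour 2 widens that spread, so this count cannot show that a list does not rest on it. The cholesterol median, -1.04 with all livers and -0.45 without that liver, is among the 232. Genes at a few reads are limited by depth.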
